A study of Labroides dimidiatus with 23 samples.

Results

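The broad acetylated domains of the cleaner wrasse forebrain were long stretches of chromatin under H3K27ac peaks in each of 22 libraries. Consensus regions were built from bases under the deposited broad peaks of at least 3 of these libraries, joined over gaps of up to 200 bp. A domain had to be 10 kb or longer, with 50% or more of its bases under peaks in all 22. Of 52979 consensus regions, 975 met this rule, and they held 15.7% of the consensus length, or 20.99 Mb. Presence and cover chose the domains, so their high cover is a description and not a finding.

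Acetylation of lysine 27 on histone H3 (H3K27ac) marks active promoters and enhancers. Most marked sites are short, around single promoters or enhancers. In mammals, long stretches of the mark and clusters of marked sites, called stretch enhancers and super-enhancers, are known to lie at genes that define a cell type. Genes and sequence were not analysed here, so none of the domains is tied to a gene. Coordinates follow the deposited lists, on a build not named in the sources used here.

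The mark was mapped with CUT&RUN, in which a nuclease tethered to the antibody releases marked chromatin for sequencing. The tissue was forebrain of adult Labroides dimidiatus, a reef fish that eats parasites off client fish. Familiar fish already knew a client when their social preference was tested, while both clients were new to control fish. Each title also carries 120 or 30 without a unit, called the label here. There were 6 familiar and 6 control libraries with label 120, and 6 familiar and 5 control libraries with label 30. No genotype or other agent is given in the labels. Forebrain holds many cell types, and a peak list cannot tell which of them carry a domain. In such bulk tissue, fewer cells with the mark and less of the mark per cell cannot be told apart. Read depth is unknown, since the lists hold no read counts.

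The 22 libraries listed 34714 to 48264 peaks. Familiar 30 replicate 2 listed 7077 and is the library that the rule for the domains leaves out. Familiar 120 replicate 3 listed the 34714 and stood lowest in cover of the domains, as given below. Of the 5828 regions present in 3 libraries alone, 981 were shared by familiar 120 replicate 3, familiar 30 replicate 4 and control 30 replicate 3, against 66 for the next such trio. Some values are also given without these 3 libraries.

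The domains had a median length of 17.1 kb, and those between the lower and upper quartile measured 12.8 to 24.7 kb. There were 378 domains of 20 kb or longer, 39 of 50 kb or longer and 2 above 100 kb. The share of regions that qualified grew with length. It was 36.1% of the 1087 regions of 10 to 15 kb (392 domains), 45.4% of the 452 regions of 15 to 20 kb, and 58.04% of the 367 regions of 20 to 30 kb. Of 187 regions of 30 to 50 kb 67.4% qualified, and of the 51 longer ones 76.5%. Length and presence both entered the rule and come from the same peaks, so this trend is a description and was not tested.

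**Figure D1:**
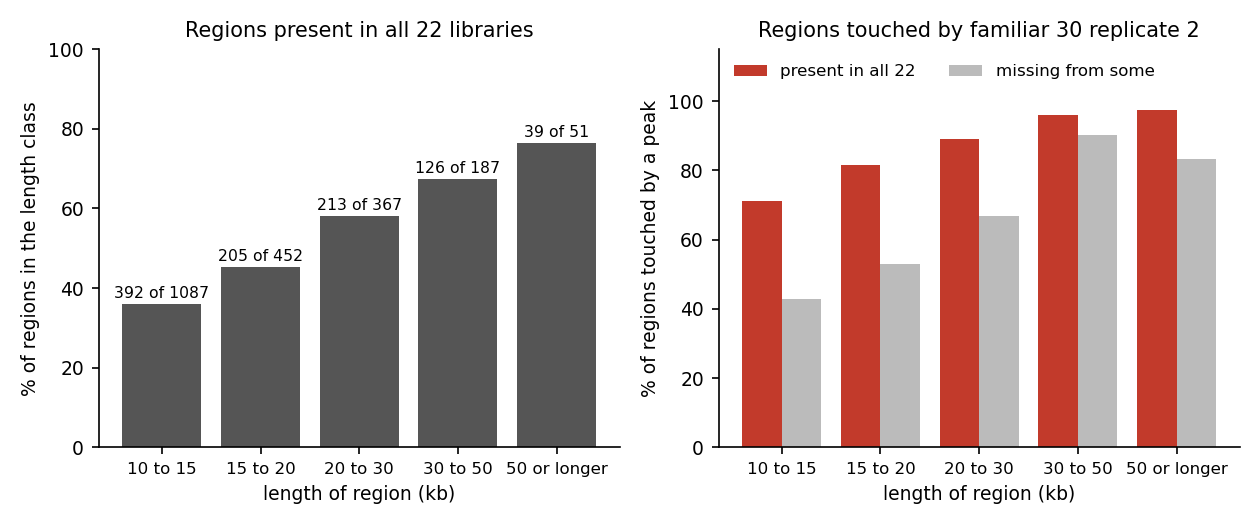
Left, percent of regions in each length class (kb) that were present in all 22 libraries, with numbers above the bars. Right, percent touched by a peak of familiar 30 replicate 2, for domains (red) and for regions missing from some library (grey). The share present in all grew from 36.1% to 76.5%, and that library touched more of the domains than of the other regions in each class.

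The 5 longest domains lay on 5 different chromosomes, and all were broken into several peaks in most libraries. The 115.8 kb domain on chromosome 1 from 13022127 to 13137891 was cut into 4 to 15 peaks per library, with a median of 9. The 113.9 kb domain on chromosome 11 from 21638203 to 21752120 held 2 to 10 peaks, and the next domain lay 0.325 kb away. The 99.9 kb domain on chromosome 24 from 3192287 to 3292157 was under a single peak in 1 library and under as many as 12 in another. On chromosome 22 from 12171254 to 12270782, a 99.5 kb domain held 5 to 12 peaks and was under a single peak in no library. The fifth, 98.1 kb on chromosome 18 from 14816693 to 14914790, was under a single peak in 2 libraries.

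In 4 of these 5 domains familiar 120 replicate 3 had the lowest cover. On chromosome 18 it had 55.3%, against 82.8% in the next lowest library, a median of 95.5% and a highest value of 99.6%. On chromosome 11 it had 63.4%, against 83.1% in the next lowest library and a median of 90.6%. The gap was small in the longest domain, where its 79.6% stood beside 79.9% in the next library. The gap between this library and the rest varied from domain to domain.

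At the length threshold, the shortest domains measured 10031 bp on chromosome 22 (from 14299842) and 10035 bp on chromosome 1 (from 21967825). Regions of 9996 bp on chromosome 17 (from 18578177) and 9987 bp on chromosome 13 (from 3248719) were present in all 22 libraries but too short. At the cover threshold, the lowest library covered 50.01% and 50.04% of 2 domains on chromosome 6, from 7535884 and from 15161584. It covered 49.98% of a region on chromosome 15 (from 18241372) and 49.92% of one on chromosome 14 (from 24596456), which therefore did not qualify.

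The domains ranged from nearly solid to loosely covered. A domain's mean cover over 22 libraries lay between 64.7 and 98.0%, with a median of 85.8%. The SD of a domain's cover over libraries had a median of 8.44 percentage points and ran from 1.18 to 14.9 points. Between a domain's lowest and highest library lay a median of 33.6 points. Over all 52979 regions the median SD was 30.03 points, but the rule removed domains with low values, so a smaller spread was built into the choice.

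A few domains were nearly solid in every library. On chromosome 22 from 8049724 to 8072928, a 23.2 kb domain was 1 peak in all 22 libraries, with cover of 95.1% in the lowest library and 99.9% in the highest. The same held for 18.1 kb on chromosome 20 from 4331478 to 4349531, with 94.8 to 99.8%. A 27.2 kb domain on chromosome 8 from 11671124 to 11698310 was a single peak in 19 libraries, with 92.0 to 100% under peaks. In all, 10 domains held 1 peak in every library.

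Other domains qualified only narrowly. The lowest mean cover was 64.7% ± 9.46 (SD, n = 22) for 16.8 kb on chromosome 4 from 21024432 to 21041264, where the lowest library had 52.2% and the highest 87.7%. The chromosome 5 domain from 15201263 to 15218162 followed with 65.1% ± 10.4. Next was chromosome 20 from 13228376 to 13249229 with 65.9% ± 9.70. The largest spread was measured on chromosome 12 from 26527595 to 26543890, at 84.98% ± 14.9, where familiar 120 replicate 3 had 51.1% and the highest library 100%. On chromosome 19 from 2784844 to 2796744 cover was 77.5% ± 14.9. It was 78.7% ± 14.9 on chromosome 10 from 16049882 to 16063634.

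Each domain had a core of bases that lay under peaks of all 22 libraries. The cores summed to 11.6 Mb, or 55.02% of the length of the domains. The core share of a domain ran from 18.2 to 94.7%, with 64 domains at 75% or more and 10 under 25%. The same measure was 25.01% for the 1169 regions of 10 kb or longer that were missing from some library, and 54.7% for the 3842 shorter regions present in all. These shares, that of the domains included, follow in part from the presence rule, and the differences between them were not tested. A domain's core was split into a median of 3 segments, and the longest segment had a median of 5541 bp. Just 77 domains had a core in 1 piece. The highest core shares belonged to the 3 nearly solid domains on chromosomes 22, 20 and 8 (94.7, 93.8 and 91.1%). The lowest were 18.2% for the domain on chromosome 5 from 15201263, 20.1% on chromosome 20 (14030091 to 14044591), and 20.7% on chromosome 13 from 18843803 to 18859542.

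Weakly covered stretches, of 200 bp or more under peaks of at most 11 libraries, occurred 2706 times. Of these, 1203 lay inside a domain and the others at an end. Inner weak stretches were found in 631 domains (64.7%), and the longest measured 5607 bp. The other 344 domains had none. Cover was lower at both ends. Over the 22 libraries, the outer 500 bp were covered by 41.4% ± 5.66 (SD, n = 22), the next 500 bp by 72.8% ± 5.83, and bases 10 kb or more from an end by 91.3% ± 3.36. The last value comes only from domains of 20 kb or longer. Mean cover also rose with length, from 83.7% in domains of 10 to 15 kb to 88.7% in those of 50 kb or longer. The outermost peaks of a library, cut off at the domain's end, began or ended a median of 312 bp inside it. A peak that ran past the end counted as reaching it. So counted, 64.1% of these outermost edges were within 500 bp of the end, and 4.52% were more than 2 kb inside. All 22 libraries reached within 500 bp of both ends in 28 domains. Ends were defined by 3 libraries, so that low cover there was partly set by the rule.

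**Figure D2:**
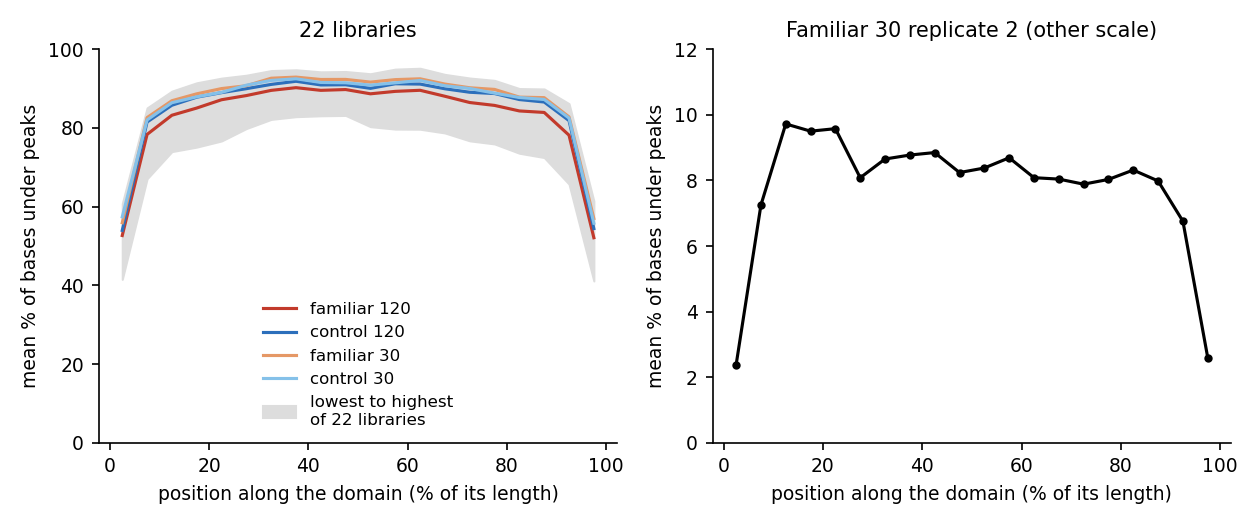
Mean percent of bases under peaks (vertical axis) along the 975 domains, in 20 bins from the lower to the higher coordinate (horizontal axis, percent of the domain's length). Left, group means of the 22 libraries as lines, with the range over libraries in grey. Cover was 54.8% in the first bin, 91.8% at its highest and 54.7% in the last. Right, familiar 30 replicate 2 on its own scale, with 2.38% in the first bin and 9.72% at its highest.

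Familiar 30 replicate 2 had no part in choosing the domains, and where its peaks fell inside them they lay on the cores. Its peaks touched 795 of the 975 domains (81.5%), against 597 of the 1169 other regions of 10 kb or longer (51.1%) and 5043 of all 52979 regions (9.52%). The domains held 26.3% of its peaks and 33.7% of its covered bases. Its peaks covered 7.55% of the length of the domains, against 10.1% for the 3842 shorter regions present in all 22 libraries, of which it touched 42.8%. Its cover was thus not higher in the domains than in short regions of the same presence. The order held in each length class, with 71.2% of domains and 42.9% of other regions touched at 10 to 15 kb, and 89.2% and 66.9% at 20 to 30 kb. Of its bases inside domains 98.9% lay on core bases, which made up 55.02% of the domains' length. It covered 13.6% of the core bases and 0.184% of the other bases of the domains. This is 1 library with few peaks, so these shares have no replicate check and no test.

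In that library a touched domain held a median of 2 of its peaks and at most 12. A single domain reached 50% cover, at 54.6% on chromosome 9 from 6479021 to 6489362, where the other 22 libraries had 82.6 to 100%. Next came 43.4% on chromosome 1 from 31811188 to 31833308, followed by 41.3% on chromosome 11 from 11680155 to 11691406. The other 180 domains held none of its peaks, among them the domain on chromosome 5 from 15201263 with the lowest core share.

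The domains held most of the widest peaks of each list and a small part of its strongest. Among the 100 widest peaks of a list, 64 to 90 touched a domain, with a median of 85 over 22 libraries. The widest peak of all touched a domain in 19 libraries. Among the 100 peaks with the highest deposited fold enrichment, the authors' value of signal over background for a peak, 2 to 15 touched a domain. For the 100 highest deposited -log10 q values the count was 3 to 15. The medians over 22 libraries were 8 for fold and 9 for q. Of all peaks of a list, 4.30 to 8.70% touched a domain, with a median of 4.79%. Width is tied to the choice of the domains, while fold and q were not used in it. Most peaks in domains were in the upper part of their lists. Their median fold percentile within a list was 65.0 to 85.3 over libraries, against 48.003 to 48.5 for all other peaks of the same list. The strongest peak of a domain stood at a median percentile of 92.4, and 613 domains (62.9%) had a median percentile of 90 or more. The median was 88.6 for shorter regions present in all 22 libraries and 82.9 for the other regions of 10 kb or longer. As a maximum over peaks, this value tends to rise with their number.

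Cover was in most domains made up of strong peaks. When only peaks with a -log10 q of 5 or more counted, mean cover over libraries stayed at 50% or more in 897 domains (92%), and over all domains it averaged 74.3%. Such peaks covered 75.4% of the summed length of the domains, against 48.02% for regions of 10 kb or longer that were missing from some library and 71.4% for shorter regions present in all. Applied to such peaks from the start, the rule gave 368 domains (8.23 Mb). The 16 domains under 25% consisted mainly of weak peaks. An example is 12.8 kb on chromosome 2 from 17460160 to 17472938, chosen after its values were seen, which was covered by 77.5% with every peak and by 0.339% with peaks of that strength.

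Long domains held more peaks than short ones, with a like number of gaps per length. The mean number of peaks per library was 1.74 in domains of 10 to 15 kb and 5.21 in those of 50 kb or longer. Gaps between peaks, counted as peaks minus 1, came to 0.601 per 10 kb in domains of 10 to 15 kb and 0.59996 in those of 50 kb or longer, and to 0.672, 0.686 and 0.608 in the classes between. A single peak made up all of the cover in 44.9% of the pairs of a library and a 10 to 15 kb domain, and in 7.11% at 50 kb or longer. Over all pairs it was 32.1%, and in 116 domains no library had a single peak. The longest unbroken peak covered a mean of 67.4% of a domain.

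All 975 domains lay on the 24 numbered chromosomes, and none on the scaffolds. Chromosomes 21 and 24 carried the most per length, with 28.7 and 27.97 domains per 10 Mb (64 and 25 domains). Chromosome 9 followed with 21.0 per 10 Mb and held the most in number, 71. Chromosomes 2, 15, 23 and 19 were lowest, with 9.26, 9.34, 9.36 and 9.53 per 10 Mb. On chromosome 24, domains made up 7.24% of the length up to the last peak, against 1.57% on chromosome 15 and 2.91% over the 24 chromosomes. The share of the regions of 10 kb or longer that qualified varied less, from 30.8% on chromosome 17 to 59.5% on chromosome 24. No test of chromosomes was made.

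**Figure D3:**
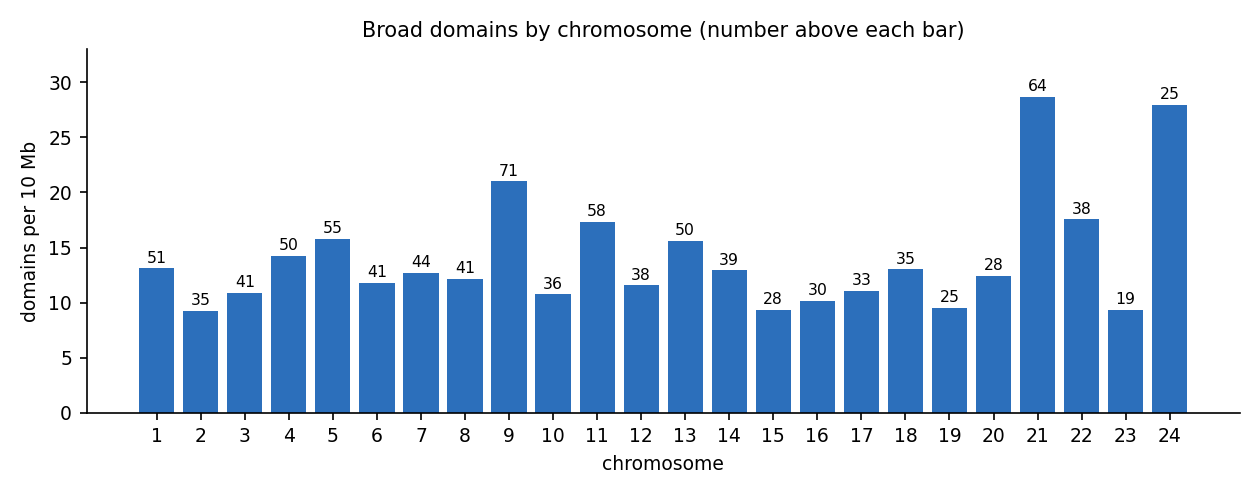
Domains per 10 Mb of chromosome length up to the last peak (vertical axis) on each of 24 chromosomes, with the number of domains above each bar. Chromosomes 21 and 24 stand at 28.7 and 27.97 per 10 Mb, and chromosome 2 at 9.26.

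The nearest other domain lay a median of 117 kb away. Of the 975, 186 (19.1%) had another domain within 10 kb and 345 (35.4%) within 50 kb, while 178 were more than 500 kb from any other. Of 730 windows of 1 Mb, 299 held no start of a domain, 186 held 1 and 82 held 4 or more. The fullest windows held 8 domains each, on chromosome 9 from 9000001 to 10000000 (250.8 kb of domains), again on chromosome 9 between 18000001 and 19000000, and between 20000001 and 21000000 of chromosome 11. These windows were chosen after their values were seen. The nearest region of any length lay a median of 1157 bp away, and within 1 kb for 401 domains (41.1%). With gaps of up to 1000 bp joined, the rule gave 904 domains.

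The mean cover of the domains in a library was 83.0% ± 5.99 over the 6 familiar 120 libraries, against 85.2% ± 3.02 over the 6 control 120 libraries (SD). It was 86.4% ± 2.40 over the 5 familiar 30 libraries, against 85.9% ± 1.73 over the 5 control 30 libraries. Among familiar 120 libraries the lowest was 73.5%, the median 85.8% and the highest 88.2%. Among control 120 libraries these were 81.2, 86.7 and 88.0%. Familiar 30 libraries had 87.1, 86.9, 88.7, 86.9 and 82.3%, and control 30 libraries had 87.1, 86.2, 82.9, 86.5 and 87.0%. All 4 groups overlapped. The 2 lowest libraries of all were familiar 120 replicate 3 (73.5%) and replicate 4 (77.6%), which also had the fewest peaks among the 22. Group comparisons without each of them are given below.

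The libraries with low cover were those with more breaks. The mean number of peaks per domain was 2.50 ± 0.430 over the 6 familiar 120 libraries, against 2.39 ± 0.295 over the 6 control 120 libraries (SD). It was 2.26 ± 0.246 over the 5 familiar 30 libraries, against 2.28 ± 0.198 over the 5 control 30 libraries. Familiar 120 replicate 3 had 3.10 peaks per domain and replicate 4 had 2.999, while the least broken library, familiar 30 replicate 4, had 2.07. Familiar 120 replicate 3 had the lowest cover of the 22 in 463 domains (47.5%), and familiar 120 replicate 4 in 144. Among the 1169 regions of 10 kb or longer that did not qualify, 511 fell under 50% in 1 library alone. That library was familiar 120 replicate 3 in 414 of them.

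**Figure D4:**
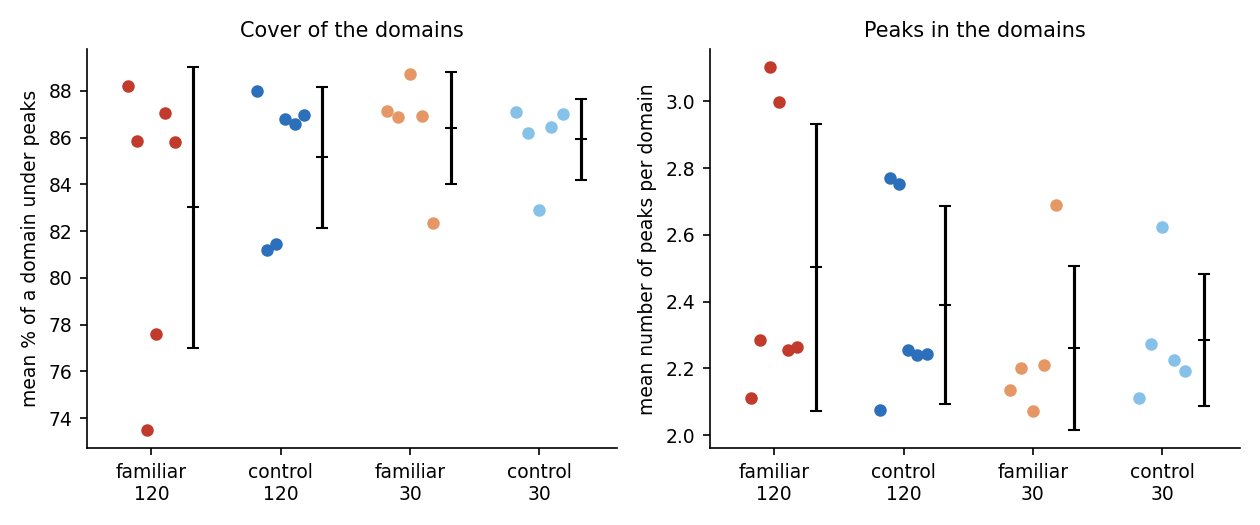
Each point is 1 library, by group (horizontal axis), with the group mean and SD beside it in black. Left, mean percent of a domain under peaks. Right, mean number of peaks per domain. Both vertical axes start above 0. The groups overlap, and the 2 familiar 120 libraries at 73.5 and 77.6% cover are those with 3.10 and 2.999 peaks per domain.

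Familiar and control fish with label 120 were compared to ask whether earlier contact with a client goes with a difference in cover. Cover was tested in 940 domains, since 35 with a mean above 95% were outside the range tested. No domain passed the threshold, an adjusted p under 0.05 in limma, a linear model that pools the spread over all regions (0 of 52924 regions called, 0%). At an unadjusted p under 0.05 stood 2 domains (0.213%), against 4.35% of all regions. The rule keeps every library of a domain at 50% or more, which limits how far groups can differ, so the low share is partly built into the choice, here and in the other comparisons of cover. Nor does a call of 0 show that groups were alike. On simulated data the model missed shifts of the size of the differences named below. Most of the much larger shifts were recovered, but these could take cover under the 50% that the rule requires. Their recovery therefore says little about domains. The median difference, familiar minus control, was -2.19 percentage points over domains and -4.13 over all regions. Over domains it was -0.09 points without familiar 120 replicate 3, -1.26 without replicate 4 and -0.11 without the 3 libraries. It was -3.43 points without familiar 120 replicate 1, the furthest the other way with 1 library left out. The order turned when only peaks with a -log10 q of 5 or more counted, with -3.97 over domains and -2.61 over all regions. With each library's covered length as a covariate the values were -0.04 and -0.76. The pooled spread is drawn mostly from short regions, and the median SD was 30.04 points over all regions tested, against 8.44 in domains. With a spread that follows region length, an alternative added after the values were seen, 0 domains were called and 17 (1.81%) stood at an unadjusted p under 0.05, against 4.42% of all regions. Over the forms of this alternative the count ran from 10 without control 120 replicate 5 to 28 without familiar 120 replicate 1. The share of all regions under each form is not given, here and in the comparisons of cover below. Such ranges therefore show how the count moved and are not a result about the domains.

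The domain with the smallest p was 11.3 kb on chromosome 15 from 25570929 to 25582200. Its cover in familiar 120 libraries was 60.03% at the lowest, 71.7% at the median and 82.3% at the highest, against 79.5, 90.3 and 93.6% in control 120 libraries. The difference was -15.97 ± 6.81 points (SE, limma adjusted p = 0.968). The groups overlapped, as familiar replicates 2 and 6 stood above the lowest control library. Second was 13.1 kb on chromosome 2 from 22416128 to 22429236, with 56.4% at the lowest, 79.2% at the median and 88.7% at the highest in familiar 120 libraries, against 87.6, 91.2 and 99.9% in control 120 libraries (-15.03 ± 7.03, limma adjusted p = 0.968). The groups overlapped, and the 56.4% was familiar 120 replicate 3. No domain separated the groups fully in either direction, where 0.00945% of all regions were higher and 0.104% lower in familiar fish.

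With label 30, familiar and control fish differed in no domain at the threshold (0% of all regions called). A single domain stood at an unadjusted p under 0.05 (0.106%), against 3% of all regions, and 3 (0.319%) with the spread by length, against 2.92%. The last count was 13 without familiar 120 replicate 3 and 23 without the 3 libraries, the highest of its forms, and the lowest was 2. The median difference was 0.55 points over domains and 0.44 over all regions, and -1.03 points over domains without the 3 libraries. It was -0.54 points without control 30 replicate 3 and 1.45 without familiar 30 replicate 6. With familiar 30 replicate 2 added, the library of few peaks that the rule left out, it was -12.73 over domains and -7.69 over all regions. The domain with the smallest p was the loosely covered one on chromosome 5 from 15201263. In this domain cover was 89.1, 71.9, 77.7, 73.7 and 69.99% in familiar 30 libraries, against 67.7, 59.5, 53.1, 53.6 and 62.2% in control 30 libraries. Every familiar library stood above every control library, and the means differed by 17.25 ± 7.79 points (SE, limma adjusted p = 1). At label 120 the same domain had 66.3% ± 10.1 in familiar and 59.4% ± 8.69 in control libraries (SD, n = 6 each), and the groups overlapped.

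In 3 further domains each familiar 30 library stood above each control 30 library, namely chromosome 10 from 23319161 to 23339321, chromosome 14 from 2458599 to 2469517 and chromosome 18 from 1051669 to 1069465. Their means were 94.5, 96.7 and 85.9% in familiar fish, against 85.5, 91.3 and 75.1% in controls. These 4 are 0.426% of the domains tested, against 0.149% of all regions, and none was lower throughout, against 0.111%. Such shares rest on few domains, and the difference between them was not tested. The second smallest p went to 10.1 kb on chromosome 11 from 20493154 to 20503222. Cover there was 58.5, 69.6, 78.6, 69.7 and 54.2% in familiar 30 libraries, against 72.4, 74.96, 98.9, 95.8 and 68.2% in control 30 libraries, and the groups overlapped (-15.93 ± 9.10, limma adjusted p = 1).

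In control fish, label 120 against label 30 gave no domain past the threshold (0% of all regions). Unadjusted, 2 domains (0.213%) stood under 0.05, against 3.2% of all regions. With the spread by length 12 did (1.28%, against 3.05%), and 0 domains passed the threshold, against 0.00189% of all regions. The count of 12 became 26 without familiar 120 replicate 3 and 26 without the 3 libraries, and the lowest was 9. The median difference over domains was -0.46 points, -1.59 without control 30 replicate 3 and -1.63 without the 3 libraries. It was 0.20 without control 120 replicate 2 and 0.18 without control 120 replicate 3. The chromosome 15 domain from 25570929 came first here too, this time higher, with 79.5% at the lowest, 90.3% at the median and 93.6% at the highest in control 120 libraries. Control 30 libraries had 70.4, 70.5, 79.5, 73.4 and 61.0%, so that replicate 3 of each label, at 79.5%, was the point where the groups met (17.14 ± 7.14 points, limma adjusted p = 1). The comparison shares its control 120 libraries with that of familiar and control fish, so the 2 differences are not independent. A 22.6 kb domain on chromosome 22 from 5238946 to 5261595 was lower, with 52.1% at the lowest, 58.8% at the median and 74.1% at the highest in control 120 libraries, against 77.7, 76.7, 83.2, 75.7 and 73.1% in control 30 libraries (-16.82 ± 8.04, limma adjusted p = 1). Only control 120 replicate 4, at 74.1%, reached the range of the label 30 libraries. A single domain was higher throughout at label 120 (0.106%, against 0.102% of all regions) and a single one lower (0.106%, against 0.1%).

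In familiar fish, label 120 against label 30 also gave 0 domains past the threshold (0% of all regions), with 2 (0.213%) at an unadjusted p under 0.05, against 4.19% of all regions. With the spread by length there were 17 (1.81%), against 4.19%, a count that ran from 7 without familiar 120 replicate 4 to 36 without familiar 120 replicate 5. The median difference was -3.41 points over domains and -4.81 over all regions. Over domains it was -1.25 without familiar 120 replicate 3, -0.84 without the 3 libraries and 0.05 with each library's covered length as a covariate. Without familiar 30 replicate 6 it was -4.52 over domains and -6.80 over all regions, and 28 regions but 0 domains were called. Here too the order turned with only peaks at a -log10 q of 5 or more, to -5.27 over domains and -2.49 over all regions. With familiar 30 replicate 2 added, the median difference changed sign, to 9.90 over domains and 3.22 over all regions. Cover of 11.3 kb on chromosome 20 from 10156563 to 10167910 was 55.5% at the lowest, 67.2% at the median and 87.6% at the highest in familiar 120 libraries, against 94.5, 93.8, 93.1, 81.6 and 76.4% in familiar 30 libraries (-18.81 ± 7.69, limma adjusted p = 0.999). The groups overlapped. They did not overlap for 11.4 kb on chromosome 24 from 6654053 to 6665490, with 52.7% at the lowest, 81.5% at the median and 85.7% at the highest at label 120, against 98.1, 95.9, 97.6, 94.2 and 88.1% at label 30 (-17.39 ± 7.52, limma adjusted p = 0.999). The chromosome 24 domain was 1 of 2 that were lower throughout (0.213%, against 0.157% of all regions), and 0 were higher throughout, against 0.0113%.

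Whether the familiarity difference itself differed between labels was tested as an interaction, which called 0 domains (0% of all regions). The domains on chromosomes 15 and 20 named above had the smallest p, at -23.19 ± 10.1 and -23.36 ± 10.9 points (SE, limma adjusted p = 1 for both). Unadjusted, 2 domains (0.213%) stood under 0.05, against 4.15% of all regions, and 9 (0.957%) with the spread by length, against 4.14%, with a range of 5 without familiar 30 replicate 5 to 19 without the 3 libraries. The median interaction over domains was -2.83 points, -3.79 without familiar 30 replicate 6, -0.73 without familiar 120 replicate 3 and 0.90 without the 3 libraries. It was 10.29 points with familiar 30 replicate 2 added.

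**Figure D5:**
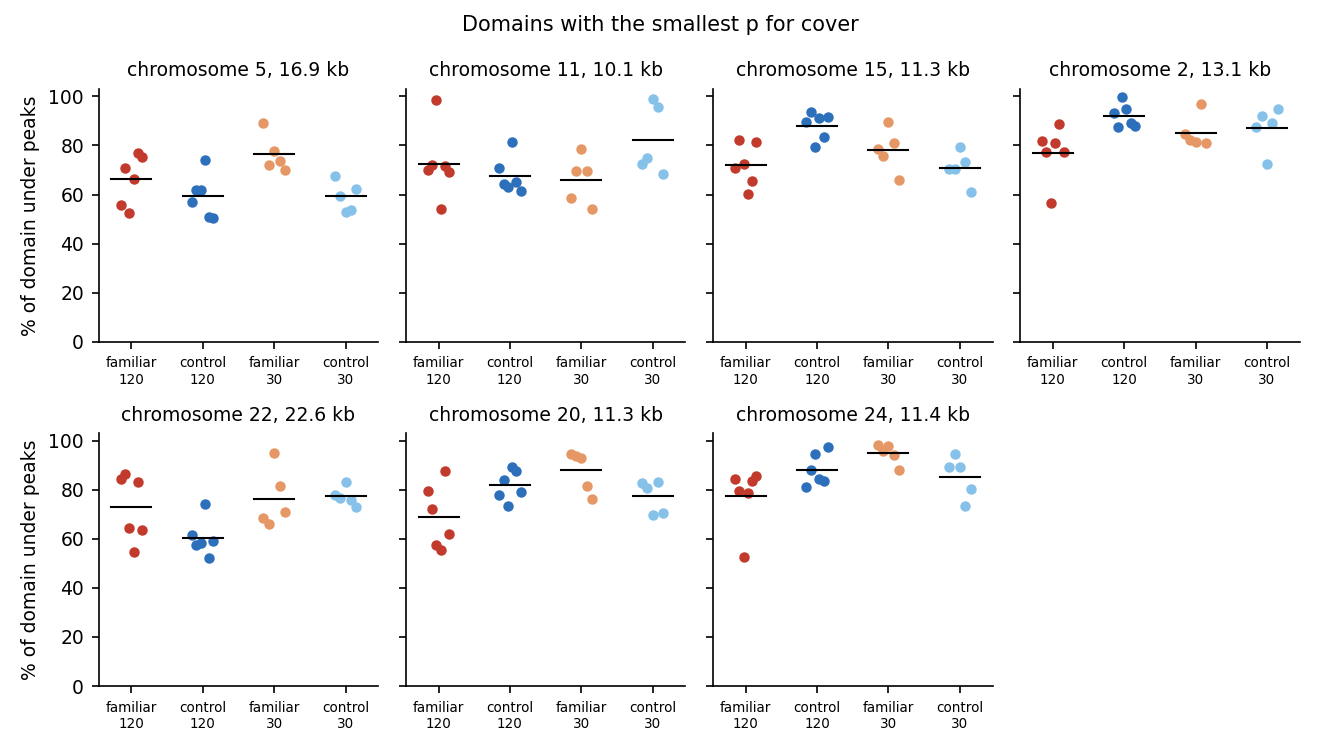
Percent of the domain under peaks (vertical axis) in each of 22 libraries (points) by group (horizontal axis), with group means as lines, for the 7 domains with the smallest p in the 5 comparisons of cover. In the chromosome 5 domain all familiar 30 libraries lie above the control 30 libraries, and in the chromosome 24 domain all familiar 120 libraries lie below the familiar 30 libraries.

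The number of separate peaks in a domain, a measure of how broken it is that the rule did not use directly, gave no call in any of the 5 comparisons (0% of the 2134 regions of 10 kb or longer tested). It was tested in 965 domains, since 10 had a single peak in every library. Unadjusted, 38 domains (3.94%) stood under 0.05 for familiar against control at label 120, against 4.73% of all regions tested. At label 30 there were 32 (3.32%, against 3.09%). For label 120 against 30 there were 33 in control fish (3.42%, against 4.26%) and 47 in familiar fish (4.87%, against 4.55%), and for the interaction 37 (3.83%, against 4.4%). The count at label 120 ran from 25 without control 120 replicate 6 to 58 without familiar 120 replicate 6. That for familiar fish was 29 without familiar 30 replicate 5, 27 when peaks under a -log10 q of 5 were dropped and 51 without control 30 replicate 3. The share of all regions is not given for these alternatives. Of the 47, 38 had more peaks at label 120 and 9 had fewer, against 66 and 31 over all regions tested. With covered length as a covariate these became 16 and 18, against 35 and 53.

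The clearest step in breaks was in 12.5 kb on chromosome 16 from 12628418 to 12640961. All 6 control 120 libraries covered it with 1 peak and all 5 control 30 libraries with 2, a difference of -0.58 ± 0.16 on the log2(peaks + 1) scale (SE, limma adjusted p = 0.988). It was the only region of those tested that was lower throughout in that comparison (0.104% of the domains, 0.0469% of all). In familiar fish 5 of 6 libraries at label 120 had 1 peak and 4 of 5 at label 30 had 2. A 47.97 kb domain on chromosome 17 from 15021537 to 15069504 held 2, 3, 2, 3 and 3 peaks in familiar 30 libraries, against 4, 4, 5, 4 and 6 in control 30 libraries, with no overlap, the only such domain (0.104%, against 0.0469% of all regions tested; -0.64 ± 0.24, limma adjusted p = 1). At label 120 its mean was 4 ± 1.41 peaks in familiar and 3.17 ± 1.60 in control libraries (SD, n = 6 each), in the other order.

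The chromosome 10 domain from 23319161 was 1 peak in 4 of 5 familiar 30 libraries and 2 or more in all control 30 libraries (-0.62 ± 0.22, limma adjusted p = 1). At label 120 it held 1.5 ± 0.837 peaks in familiar and 2.5 ± 0.837 in control libraries (SD, n = 6 each). At label 120, 24.7 kb on chromosome 10 from 23797411 to 23822160 held a mean of 2.67 ± 0.516 peaks in familiar and 4.5 ± 0.837 in control libraries (SD, n = 6 each; limma adjusted p = 0.972). On chromosome 6 from 12494834 to 12513321 the means were 2.5 ± 0.548 and 1.5 ± 0.548 (limma adjusted p = 0.972). The chromosome 15 domain from 25570929 had fewer peaks where its cover was higher, with 1.67 ± 0.516 over 6 control 120 libraries, against 3 ± 0.707 over 5 control 30 libraries (SD, limma adjusted p = 0.988). The chromosome 20 domain from 10156563 had 2.83 ± 0.753 peaks over 6 familiar 120 libraries, against 1.4 ± 0.548 over 5 familiar 30 libraries (SD, limma adjusted p = 0.995). In the same groups, 41.6 kb on chromosome 17 from 16324521 to 16366110 had 3.5 ± 0.548 and 1.8 ± 1.30 (limma adjusted p = 0.995). For the interaction, the smallest p belonged to 73.8 kb on chromosome 4 from 20622609 to 20696386 (-1.11 ± 0.36) and a 13.0 kb stretch of chromosome 5 from 10715884 to 10728918 (0.84 ± 0.29), with a limma adjusted p of 0.972 for both.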

How the data were processed

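The authors deposited 1 broad peak list per library. Tools in the submitters' processing notes are Trimmomatic 0.39 and, with no version, Bowtie2, FastQC, MACS2, Picard and SAMtools. Settings, the use of input as a control and the genome build: not given in the sources used here. Besides peak starts and ends, the deposited lists give a score, which is 10 times the -log10 q value without decimals, a fold enrichment, which is a ratio over background, and -log10 p and -log10 q values. No listed -log10 q was below 1. A library with fewer reads yields fewer and narrower peaks, read depth is unknown, and no interval for counting error is given.

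Percent cover of each consensus region (mitochondrial genome left out, regions of at least 200 bp) was modelled in limma 3.58.1 (R 4.3.3). The fit held all 4 groups and the 52924 regions covered by 5 to 95% on average, with Benjamini-Hochberg adjustment over all of them. Breaks were tested as log2(peaks + 1) over regions of 10 kb or longer that varied. Percent cover is bounded, which this model does not describe. On simulated data the cover model missed shifts of the size of the largest differences named here, with either spread in most cases, and recovered most of much larger ones, while the breaks model recovered large shifts. Groups were taken from titles and replicates numbered in accession order. No label says that libraries are separate fish, so the error behind a p-value is that among libraries and may be technical. The domains and tests were chosen with earlier results of these data known.

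Named domains are the 5 longest, the 3 highest and lowest in mean cover and in core share, the 3 with the largest SD, the 3 highest in familiar 30 replicate 2, those nearest the thresholds, and the 2 with the smallest p per comparison and measure. Further domains whose groups did not overlap, the weak domain on chromosome 2 and the fullest windows were named after their values were seen. Alternatives changed the region rule, the peaks, the libraries and the model, and the spread that follows region length, with its forms, and a fit on regions of 10 kb or longer were added after seeing the data. Python 3.11.15, numpy 2.4.6 and pandas 2.3.3 were used.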

Additional observations from a re-analysis of the deposited data

Results flagged for a closer look

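Of 52 sets of values examined for a library far from the rest of its group, 8 had one, by a rule that marks about 1 in 20 by chance. Several of the measures are linked, and the single domains were chosen for their small p. The sets are therefore not independent, and the count cannot be set against chance. Familiar 30 replicate 6 lay apart from the other 4 familiar 30 libraries in mean cover of the domains (82.3%), in mean peaks per domain (2.69), in the percent of domains under a single peak (24.4%) and in the mean longest unbroken stretch (62.0% of a domain). Control 30 replicate 3 lay below its group in mean cover, at 82.9%. In single domains, familiar 120 replicate 3 lay below its group on chromosome 2 from 22416128 (56.4%) and on chromosome 24 from 6654053 (52.7%). Familiar 30 replicate 5 lay above its group in the chromosome 2 domain, at 96.8%.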

How the results depend on the processing

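The number of domains depended on the presence rule more than on how regions were joined. It was 836 (15.1 Mb) with bases under peaks of at least 11 libraries and 904 (21.9 Mb) with gaps of up to 1000 bp joined. It was 97 (2.76 Mb) with presence at 80% of bases, 368 (8.23 Mb) when peaks under a -log10 q of 5 were dropped, and 1571 (32.1 Mb) without the 3 libraries. With all 23 libraries 1 domain (0.0103 Mb) was left. Leaving out each library in turn gave 975 to 1389 domains and 20.99 to 29.1 Mb, the highest without familiar 120 replicate 3. In each case libraries were dropped from the presence rule alone, and the regions were not rebuilt. These counts, and the 1571 without the 3 libraries, could therefore not fall below 975. Within the same 975 domains, the core share was 55.07 to 59.7% with each library left out and 61.6% without the 3 libraries. A core under fewer libraries can only stay the same or grow from the 55.02% with all 22, so this rise was built in.

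All 414 repeats of the comparisons over 57 settings for cover and 26 for breaks called 0 domains, and the lowest limma adjusted p of a domain was 0.653 for cover and 0.260 for breaks. Some of the cover repeats did call regions outside the domains. The most were 28, for label 120 against 30 in familiar fish without familiar 30 replicate 6. Of 827 repeats for named domains, 1 turned its sign: the breaks of the chromosome 20 domain from 10156563, label 120 against 30 in familiar fish, came to -0.15 when peaks under a -log10 q of 5 were dropped, and the cause was not tested. No paired analysis was possible because the titles give no replicate number that the groups share. Their library numbers fall into 3 ranges. The range from 17 to 29 holds no control 30 library and, of the 22 libraries, only replicate 1 of familiar 30. The label 30 comparison is therefore not balanced over the ranges. With the range as a block 0 domains were called. The median difference over domains, familiar against control, was then -2.71 points at label 120 and -0.18 at label 30, of the other sign than the 0.55 without the block, and for label 120 against 30 it was -3.66 in familiar and -1.02 in control fish. Read depth is unknown, and peak lists do not show a change in signal height within a stretch that stays under peaks.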
